A study of Mus musculus with 17 samples.

Results

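The genes of the eukaryotic translation initiation factors were followed in whole blood of irradiated mice. Members were the probe sets to which the array annotation gives a single gene symbol starting with Eif and a digit from 1 to 6, without the eIF2 kinases of the Eif2ak group, and the probe set of a gene that was brightest on average over all 17 arrays stood for it. This gave 43 of the 18193 genes on the array. Of these, 41 passed the filter on dim probe sets and were tested, and 39 of them lay above the median of every array. Eif2a, an alternative carrier of initiator tRNA, and Eif2s3y, the Y-linked gene of the eIF2 gamma subunit, did not pass. Eif2s3y read between 1.36 and 1.98 on the log2 scale on all arrays, well under the array medians, in animals that the labels give as female. Eif1, Eif2s1, Eif3g and Eif4g1 were not analysed here.

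The mice were female C57BL/6JJcl animals, an inbred strain without engineered alleles, irradiated at 8 weeks of age with X-rays over the whole body and killed 24 h later. Unirradiated controls numbered 5, and 4 mice each received 0.5, 1.0 or 3.0 Gy. Each mouse gave 1 array of total RNA from blood taken into a stabilising tube, so red cell precursors, platelets and white cells were measured together. Values are the authors' log2 RMA levels, and a difference of 1 is a doubling.

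Initiation factors bring the small ribosomal subunit, the initiator tRNA and the mRNA together and find the start codon. The eIF2 complex carries the initiator tRNA, and its exchange factor eIF2B recharges it with GTP; stress kinases that phosphorylate eIF2 slow this step. eIF4E binds the mRNA cap, eIF4G is the scaffold and eIF4A the helicase; eIF3 links this assembly to the small subunit, and the 4E-binding proteins, which mTORC1 phosphorylates, hold eIF4E back. In blood, protein synthesis is known mainly from reticulocytes, which make globin, and from activated lymphocytes.

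The promoters of 6 of the members whose values are given array by array are shown, so that the genes that rose and those that fell can be set side by side. Each is the stretch from 150 bases before to 20 bases after a RefSeq transcript start in GRCm38.p6, read 5′ to 3′ on the strand of the gene. Eif3k (chr7:28981869-28982038, minus strand), Eif3l (chr15:79075073-79075242, plus strand), Eif3m (chr2:105017008-105017177, minus strand) and Eif5 (chr12:111537951-111538120, plus strand) fell, while Eif4a3 (chr11:119300024-119300193, minus strand) and Eif5a2 (chr3:28781127-28781296, plus strand) rose at 3.0 Gy. Capitals mark CACGTG, the E-box that MYC and USF proteins can bind, and CCGGAA on either strand, the core bound by ETS proteins.
Eif3k: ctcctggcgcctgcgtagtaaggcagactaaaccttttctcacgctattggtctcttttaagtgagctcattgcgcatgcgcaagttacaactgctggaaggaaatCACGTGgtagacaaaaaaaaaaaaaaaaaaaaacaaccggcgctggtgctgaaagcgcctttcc
Eif3l: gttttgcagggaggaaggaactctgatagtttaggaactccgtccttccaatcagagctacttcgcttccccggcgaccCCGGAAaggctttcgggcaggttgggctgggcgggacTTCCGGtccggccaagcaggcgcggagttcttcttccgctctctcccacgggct
Eif3m: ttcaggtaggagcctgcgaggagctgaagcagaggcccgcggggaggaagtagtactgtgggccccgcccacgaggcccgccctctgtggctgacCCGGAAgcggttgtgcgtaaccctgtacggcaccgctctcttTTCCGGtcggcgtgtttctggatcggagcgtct
Eif4a3: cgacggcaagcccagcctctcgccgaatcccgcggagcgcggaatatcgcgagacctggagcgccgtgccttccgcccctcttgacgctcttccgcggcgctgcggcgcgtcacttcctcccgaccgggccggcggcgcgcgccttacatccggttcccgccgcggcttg
Eif5: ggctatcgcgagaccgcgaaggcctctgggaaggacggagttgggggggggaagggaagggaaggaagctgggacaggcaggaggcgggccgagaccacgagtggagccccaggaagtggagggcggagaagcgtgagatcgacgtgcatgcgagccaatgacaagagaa
Eif5a2: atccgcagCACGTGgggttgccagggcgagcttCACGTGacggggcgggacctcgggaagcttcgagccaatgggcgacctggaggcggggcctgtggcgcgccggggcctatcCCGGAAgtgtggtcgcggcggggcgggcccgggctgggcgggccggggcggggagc

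The E-box stood once in the stretch of Eif3k and 2 times in that of Eif5a2, so it was present in a member that fell and in one that rose. CCGGAA stood 2 times each in Eif3l and Eif3m and once in Eif5a2. The stretches of Eif5 and Eif4a3 hold neither, although Eif5 fell more than Eif3k and Eif3m. RefSeq windows, 300 bases from 250 before to 50 after a start, were at hand for 34 members. In these, 9 members (26.5%) held CACGTG on either strand, where it reads the same, against 8.09% of the 27025 gene symbols with a window. CCGGAA on either strand was in the windows of 19 members (55.9%), against 16.7% of symbols; the motifs cannot overlap each other. A run of C and at least 4 pyrimidines starting within 15 bases of the start, the form of the terminal oligopyrimidine tract of ribosomal protein mRNAs, was in the windows of 13 members (38.2%), against 43.3% of symbols. Of the tested members with CACGTG, 7 of 9 were called lower at 3.0 Gy, and of those without it 17 of 23. For CCGGAA the counts were 13 of 19 with and 11 of 13 without it, and for the pyrimidine run 11 of 12 with and 13 of 20 without it. A match is a run of letters, and no factor was measured.

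Some properties of the whole arrays bear on every result that follows. Array medians lay between 3.47 and 3.57. The control probe sets for 18S ribosomal RNA averaged 10.52 ± 0.49 on control arrays, 12.69 ± 0.77 on 0.5 Gy arrays, 13.28 ± 0.28 on 1.0 Gy arrays and 10.68 ± 0.14 on 3.0 Gy arrays (SD, n = 5 controls and 4 per dose), so they were high in the arrays of the lower doses. Of the platelet markers, 10 of 10 rose at each dose, with summed log2 levels of 13.6 to 14.3 on control arrays, 14.7 to 14.9 on 0.5 Gy arrays, 14.9 to 15.2 on 1.0 Gy arrays and 14.9 to 15.6 on 3.0 Gy arrays. B cell markers summed to 11.4 to 12.1 on control arrays, 10.8 to 11.7 on 0.5 Gy arrays, 11.1 to 11.8 on 1.0 Gy arrays and 8.07 to 9.85 on 3.0 Gy arrays, with 6 of 7 lower at the highest dose. T cell markers summed to 10.32 to 11.21 on control arrays, 10.01 to 10.54 on 0.5 Gy arrays, 9.72 to 10.58 on 1.0 Gy arrays and 9.09 to 9.35 on 3.0 Gy arrays, with 6 of 8 lower at 3.0 Gy. Red cell and reticulocyte markers summed to 14.8 to 15.2 on control arrays and 14.8 to 14.9 on 0.5 Gy arrays. Their sums were 14.5 to 14.7 on 1.0 Gy arrays and 14.1 to 14.5 on 3.0 Gy arrays. Of the 8 tested, limma called 3 lower after 0.5 Gy, 4 after 1.0 Gy and 6 after 3.0 Gy. Averaged as log2 levels, so that each marker counts alike, they read 8.69 to 9.35 on control arrays. This average was 8.38 to 8.65 on 0.5 Gy arrays, 7.91 to 8.43 on 1.0 Gy arrays and 7.80 to 8.05 on 3.0 Gy arrays. All irradiated arrays lay under all controls in it, those of 0.5 Gy narrowly. Neutrophil markers had 4 of 5 higher and monocyte markers 4 of 5 lower at 3.0 Gy, while of the NK markers 2 of 6 were lower. The part of these cell markers and of the 18S level in the results below was not tested beyond the fit with the 18S level as a covariate, and in whole blood fewer cells of a type and less RNA per cell cannot be told apart.

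**Figure D1:**
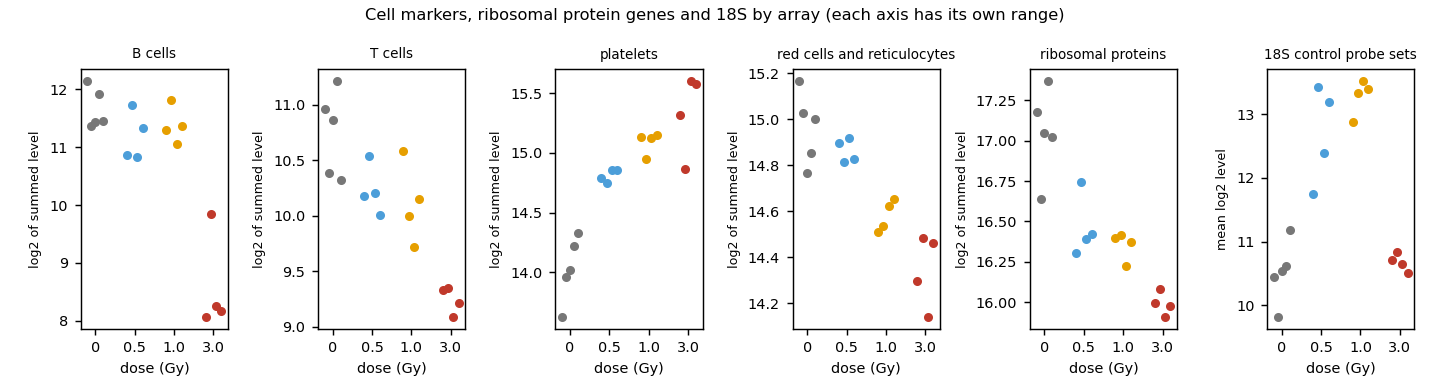
Level per array (log2 scale) of the summed markers of 4 blood cell types, of the summed ribosomal protein genes and of the mean 18S control probe sets, against dose in Gy, with 0 for the 5 controls; each point is 1 mouse. B and T cell sums are lowest at 3.0 Gy (8.07 to 9.85 and 9.09 to 9.35), and the 18S level is high at 0.5 and 1.0 Gy only.

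At 3.0 Gy most of the family was lower than in controls. With limma, 28 of 41 tested members fell and 3 rose, where 29.2% of all 12696 tested genes were called lower and 20.0% higher. The median log2 change of the members was -0.60, and that of all tested genes was 0.04. At 0.5 Gy 7 members fell and 1 rose, beside 5.0% of all genes called lower and 5.24% called higher, with a median of -0.24 for the members and -0.02 for all genes. At 1.0 Gy 9 fell and 4 rose, beside 8.49% and 8.80% of all genes, with medians of -0.12 and -0.04. Of the 28 members that fell at 3.0 Gy, 16 did so by at least 1 log2 unit. All 7 members called lower at 0.5 Gy and all 9 called lower at 1.0 Gy were also called lower at 3.0 Gy; these comparisons share the control arrays.

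The counts at the lower doses depended on single arrays. Without control replicate 1 or 4, or without 0.5 Gy replicate 1, 3 or 4, 4 members fell at 0.5 Gy, the calls of Eif2s2, Eif3e and Eif3f having ended, and without control replicate 2 the count was 11. The falls over all tested genes moved likewise. They numbered 635 with all arrays, 274 to 400 in the fits with 4 falling members, and 928 without control replicate 2. The rises at 0.5 Gy numbered 2 without control replicate 1 or without 3.0 Gy replicate 2 or 3. At 1.0 Gy 2 members rose without control replicate 2, 3 or 5 or without 1.0 Gy replicate 1, 2 or 4, the calls of Eif3a and Eif4g2 having ended. Over all tested genes the rises at 1.0 Gy then numbered 901 to 1065, against 1117 with all arrays. The 1.0 Gy falls of Eif1ax and Eif4e2 each ended without any of several single arrays. At 3.0 Gy the calls of Eif1ad, Eif3c, Eif4ebp2, Eif4enif1 and Eif4g3 ended without replicate 3 of that dose, and all but that of Eif1ad also without other single arrays. After a repeated quantile normalization 23 members fell and 5 rose at 3.0 Gy, while all tested genes then split into 3686 higher and 3329 lower, against 2534 higher and 3703 lower in the deposited values. With the 18S level in the fit, 2 members were called lower and 0 higher at 0.5 Gy and likewise at 1.0 Gy. All tested genes then had 325 lower and 232 higher at 0.5 Gy, against 635 and 665 without it. At 1.0 Gy 321 were lower and 285 higher, against 1078 and 1117. The median size of the change of the called members was then 1.07 against 0.71 at 0.5 Gy, and the median standard error was 0.40 against 0.18. In that fit 1 member was higher and 9 were lower at an unadjusted p under 0.05 at each of these doses.

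**Figure D2:**
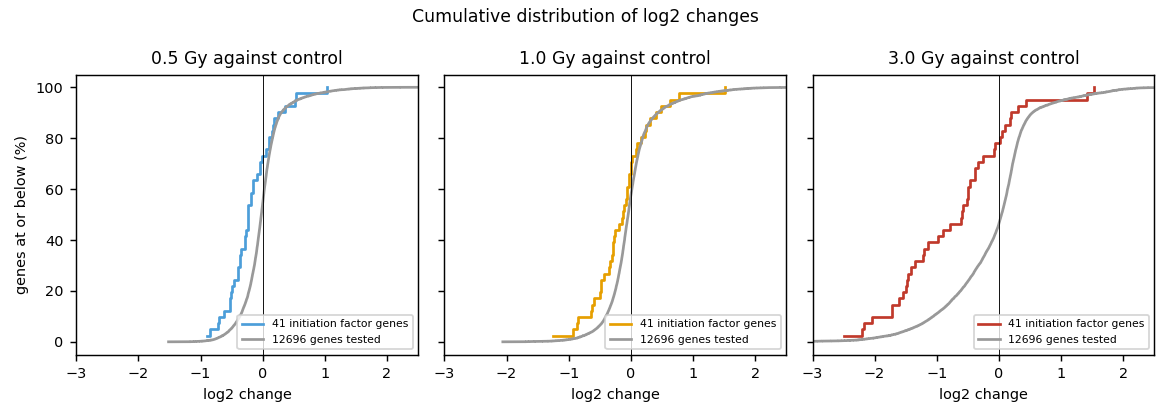
Cumulative distribution of the log2 change against control at 0.5, 1.0 and 3.0 Gy, for the 41 tested members (coloured) and all 12696 tested genes (grey); the vertical axis is the percentage of genes at or below a change. At 3.0 Gy the members' curve lies to the left of that of all genes over most of its length (medians -0.60 and 0.04).

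**Figure D3:**
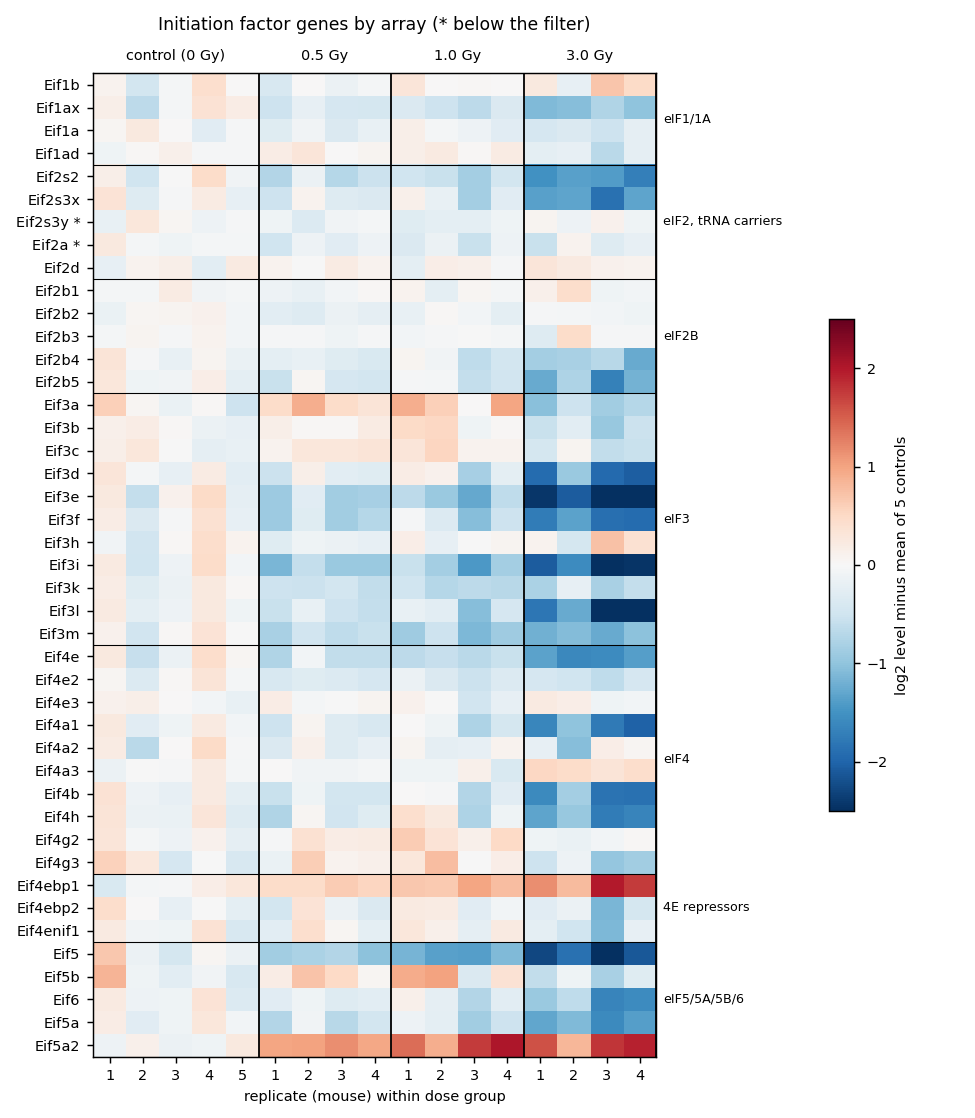
Level of all 43 members on each of the 17 arrays as the log2 difference from the mean of the 5 controls (blue lower, red higher, colour ends at 2.5 either way), ordered by role; arrays run from control to 3.0 Gy, and asterisks mark Eif2a and Eif2s3y, which did not pass the filter. Most eIF3 subunits are blue on all 3.0 Gy arrays, and Eif5a2 and Eif4ebp1 are red on the irradiated arrays.

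The scanning factors eIF1 and eIF1A hold the small subunit open while it searches for the start codon. Of 4 genes named for them, 3 fell at 3.0 Gy (75%, against 29.2% of all tested genes), with Eif1ad grouped here only by its name. Eif1ax, the X-linked gene of eIF1A, changed by -0.98 ± 0.16 (SE, adjusted p = 3.91e-05) and was also lower at 1.0 Gy (-0.48 ± 0.16, adjusted p = 0.0421). Eif1a and Eif1ad fell by smaller amounts, -0.39 ± 0.12 and -0.34 ± 0.11. Eif1b, a close relative of eIF1, stood at 0.30 ± 0.17 and was not called (adjusted p = 0.15). Another probe set of Eif1ax differed from control in the opposite direction at 1.0 Gy, and its calls at both doses ended with plainly named probe sets (those without _x, _s or _a) alone.

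Of the tRNA carriers, the eIF2 beta subunit gene Eif2s2 fell at all 3 doses, with changes of -0.53 ± 0.16 at 0.5 Gy, -0.59 ± 0.16 at 1.0 Gy and -1.49 ± 0.16 at 3.0 Gy (SE, adjusted p = 0.0437, 0.0152 and 5.44e-07). Its 3.0 Gy arrays lay between 6.03 and 6.37, against 7.24 to 8.19 in controls. Eif2s2 has 6 probe sets here, and 1 of similar brightness differed the other way, by 0.04, 0.10 and 0.23 at the doses in ascending order. The 0.5 Gy call of Eif2s2 ended with the replicate block, with the mean of all its probe sets, and without any of 12 single arrays, among other settings. Its 1.0 Gy call also ended with that mean and without 1.0 Gy replicate 3. Eif2s3x, the X-linked gene of the gamma subunit, fell at 3.0 Gy (-1.46 ± 0.19, adjusted p = 3.36e-06), to levels between 5.92 and 6.47 against 7.45 to 8.12 in controls. Eif2d, which can deliver tRNA without GTP, stood at 0.18 ± 0.12 at 3.0 Gy and was called at no dose. Of the eIF2B exchange factor, the genes of 2 of 5 subunits fell at 3.0 Gy, a share of 40% against 29.2% of all tested genes. These were Eif2b5, the catalytic epsilon subunit (-1.23 ± 0.18, adjusted p = 1.26e-05), and Eif2b4, the delta subunit (-0.90 ± 0.15, adjusted p = 5.58e-05). The other subunits, Eif2b1, Eif2b2 and Eif2b3, lay between -0.06 and 0.10 at that dose and were called at no dose. Another probe set of Eif2b2 differed by -0.93 at 3.0 Gy, and Eif2b2 was called lower there when its probe sets were averaged.

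The eIF3 scaffold had the most called members of the groups. At 3.0 Gy 10 of its 11 tested subunits fell (90.9%, against 29.2% of all tested genes), with a median log2 change of -1.14. Eif3h alone did not pass (0.19 ± 0.19, adjusted p = 0.409). Eif3e had log2 levels of 6.85, 7.20, 6.60 and 6.54 at 3.0 Gy, against 9.53, 8.69, 9.40, 9.76 and 9.06 in controls, and the groups were far apart. The change of -2.49 ± 0.20 (SE, adjusted p = 3.2e-08) is a 5.62-fold lower level, and was the largest fall of the members at that dose. At 0.5 Gy Eif3e read 8.39, 9.01, 8.43 and 8.47 and at 1.0 Gy 8.63, 8.37, 8.01 and 8.66, with changes of -0.72 ± 0.20 and -0.87 ± 0.20 (adjusted p = 0.0301 and 0.00494). Replicate 2 at 0.5 Gy lay within the range of the controls, and all 1.0 Gy arrays lay under that range. The other 2 bright probe sets of Eif3e, both of the _x_at type that can bind related transcripts, changed by -2.05 and -1.97 at 3.0 Gy.

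Eif3i, a WD-repeat subunit, was lower at all 3 doses. Eif3i read 9.67, 8.94, 9.32, 9.90 and 9.36 on the control arrays, 8.30, 8.83, 8.50 and 8.51 on the 0.5 Gy arrays, 8.87, 8.59, 8.00 and 8.59 on the 1.0 Gy arrays and 7.37, 7.86, 6.86 and 6.98 on the 3.0 Gy arrays. No irradiated array reached the lowest control. Its changes were -0.90 ± 0.21, -0.92 ± 0.21 and -2.17 ± 0.21 (SE, adjusted p = 0.01, 0.00455 and 1.99e-07), and its second probe set differed by -1.08, -0.93 and -2.24.

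Eif3k showed most of its fall already at 0.5 Gy, while Eif3m fell at 0.5 Gy and was lower again at 3.0 Gy. Eif3m read 7.25, 6.67, 7.18, 7.48 and 7.14 on the control arrays, 6.32, 6.66, 6.51 and 6.59 on the 0.5 Gy arrays, 6.25, 6.62, 6.02 and 6.26 on the 1.0 Gy arrays and 5.95, 6.07, 5.89 and 6.11 on the 3.0 Gy arrays. Every irradiated array of Eif3m lay under every control, at 0.5 Gy narrowly. The changes of Eif3m were -0.62 ± 0.14, -0.86 ± 0.14 and -1.14 ± 0.14 (SE, adjusted p = 0.0084, 0.000253 and 2.95e-06). For Eif3m, 3.0 Gy was called lower than 0.5 Gy (-0.52 ± 0.15, adjusted p = 0.0131) and was not called against 1.0 Gy (-0.28 ± 0.15, adjusted p = 0.139). Eif3k, a small subunit at the edge of the complex, read 10.08, 9.59, 9.74, 10.14 and 9.91 on the control arrays, 9.38, 9.35, 9.44 and 9.27 on the 0.5 Gy arrays, 9.39, 9.18, 9.23 and 9.20 on the 1.0 Gy arrays and 9.11, 9.70, 9.09 and 9.29 on the 3.0 Gy arrays. Replicate 2 at 3.0 Gy lay inside the control range, and the other irradiated arrays lay under it. Eif3k changed by -0.53 ± 0.13, -0.64 ± 0.13 and -0.60 ± 0.13 (SE, adjusted p = 0.0128, 0.00169 and 0.000974), and 3.0 Gy stood 0.04 ± 0.14 from 1.0 Gy.

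Of the other eIF3 subunits, Eif3b, Eif3c, Eif3d and Eif3l were called against control only at the highest dose. Eif3l read 7.72, 7.26, 7.38, 7.74 and 7.40 on the control arrays, 6.96, 7.32, 6.99 and 6.90 on the 0.5 Gy arrays, 7.33, 7.24, 6.44 and 7.08 on the 1.0 Gy arrays and 5.69, 6.24, 4.93 and 4.99 on the 3.0 Gy arrays. Every 3.0 Gy array lay under all others, while the lower doses overlapped the controls. Its change was -2.04 ± 0.23 (SE, adjusted p = 7.61e-07), and a dimmer probe set of Eif3l differed by 0.09. Eif3d (-1.72 ± 0.23) and Eif3f (-1.72 ± 0.20) also fell at 3.0 Gy, with Eif3f lower at 0.5 Gy too. Eif3d, which can itself bind the cap of some mRNAs, lay between 5.26 and 6.39 at 3.0 Gy against 7.05 to 7.63 in controls, and Eif3f between 7.95 and 8.54 against 9.52 to 10.26. The core subunits Eif3a, Eif3b and Eif3c changed by -0.79 ± 0.21, -0.58 ± 0.15 and -0.39 ± 0.15 at 3.0 Gy. Other probe sets gave other values for 2 of them. Those of Eif3a differed by -1.33, -0.32 and -0.11 at 3.0 Gy, from the brighter to the dimmer. Eif3c was read by an _x_at probe set, and its other 3, of similar brightness, differed by -1.21, -1.09 and -1.05. Eif3a was called in both directions, 0.63 ± 0.21 at 1.0 Gy (adjusted p = 0.0439) and -0.79 ± 0.21 at 3.0 Gy (adjusted p = 0.00429). It lay between 5.78 and 6.76 at 1.0 Gy against 5.26 to 6.36 in controls, which overlap, and between 4.73 and 5.26 at 3.0 Gy, where the highest array met the lowest control. The other probe sets of Eif3a differed by 0.24, 0.22 and 0.01 at 1.0 Gy. Its 1.0 Gy call ended when its probe sets were averaged.

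The eIF4 group, the cap-binding protein and its helicase and scaffold partners, split. Of 10 tested genes 6 fell (60%) and 1 rose (10%) at 3.0 Gy, against 29.2% lower and 20.0% higher over all tested genes. At 0.5 Gy limma called 0 of 10, beside 5.0% lower and 5.24% higher over all tested genes. Of the 10, 2 had an unadjusted p under 0.05 at 0.5 Gy (Eif4e2 with adjusted p = 0.0545 and Eif4e with 0.0633). Falls were largest for Eif4a1, the helicase eIF4A1 (-1.60 ± 0.19, adjusted p = 1.73e-06), Eif4b, which stimulates it (-1.54 ± 0.20), Eif4e, the cap-binding protein (-1.48 ± 0.17), and Eif4h (-1.42 ± 0.23). Eif4a1 lay between 6.99 and 8.01 at 3.0 Gy against 8.73 to 9.25 in controls, Eif4b between 6.14 and 7.16 against 7.76 to 8.37, and Eif4e between 4.66 and 4.94 against 5.71 to 6.71, with no overlap in any of them. Eif4e was already lower at 1.0 Gy (-0.62 ± 0.17, adjusted p = 0.0143), as was its relative Eif4e2 (-0.35 ± 0.12, adjusted p = 0.0463). Both 1.0 Gy calls ended when the probe sets of each gene were averaged, while both 3.0 Gy calls held. The other probe sets of Eif4e above the filter differed by -0.12 and -0.08 at 1.0 Gy, and by -0.60 and 0.13 at 3.0 Gy. Those of Eif4e2 differed by -0.14 to -0.06 at 1.0 Gy and by -0.95 to 0.28 at 3.0 Gy. The helicase paralogue Eif4a2 was not called (-0.26 ± 0.23), and neither was Eif4e3 (0.05 ± 0.12). Eif4g3, a scaffold of the eIF4G family, fell as well (-0.62 ± 0.22). Its next brightest probe set differed by 0.16, and the call of Eif4g3 ended when its probe sets were averaged. The Eif4h probe set is of the _x_at type, and 1 named plainly _at differed by 0.08 at 3.0 Gy. With only such plainly named probe sets Eif4h was not called at 3.0 Gy against control, and was called higher at 3.0 Gy against 1.0 Gy and against 0.5 Gy.

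Eif4a3, whose product sits in the exon junction complex that marks spliced mRNA, was higher at 3.0 Gy. It read 4.08, 4.01, 3.88 and 4.00 at 3.0 Gy, against 3.42, 3.56, 3.54, 3.79 and 3.50 in controls, and the 3.0 Gy arrays lay above all others. The levels at 0.5 Gy were 3.58, 3.48, 3.48 and 3.51 and at 1.0 Gy 3.46, 3.46, 3.69 and 3.17. The change of 0.44 ± 0.11 (SE, adjusted p = 0.00234) is a 1.35-fold higher level of a probe set that lay close to the array median in all groups and above it on 10 of the 17 arrays. Eif4g2, also called DAP5, is an eIF4G relative that does not bind eIF4E. It read 10.86, 10.55, 10.34 and 10.71 at 1.0 Gy, against 10.52, 10.16, 10.09, 10.31 and 9.99 in controls, and the groups overlapped. Its change of 0.40 ± 0.13 at 1.0 Gy (adjusted p = 0.0342) was not called without control replicate 2, 3 or 5 or without 1.0 Gy replicate 1, 2 or 4. At 3.0 Gy Eif4g2 read 10.10, 10.04, 10.14 and 10.24, under all 1.0 Gy arrays (-0.48 ± 0.13, adjusted p = 0.00927) and not called against controls (-0.08 ± 0.13, adjusted p = 0.602).

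Among the repressors of eIF4E, Eif4ebp1, the gene of 4E-BP1, rose. Eif4ebp1 read 7.47, 7.82, 7.83, 8.04 and 8.15 on the control arrays, 8.32, 8.31, 8.50 and 8.40 on the 0.5 Gy arrays, 8.54, 8.52, 8.84 and 8.63 on the 1.0 Gy arrays and 9.03, 8.65, 9.84 and 9.61 on the 3.0 Gy arrays. All irradiated arrays lay above all controls. Its changes were 0.52 ± 0.19 (adjusted p = 0.0903), 0.77 ± 0.19 (adjusted p = 0.00626) and 1.42 ± 0.19 (adjusted p = 4.67e-06), so the 0.5 Gy difference was not called. Of its other probe sets, 1 differed by 0.24, 0.69 and 1.55, and the other by -0.03, -0.15 and 0.03. Eif4ebp2, its relative, and Eif4enif1, which carries eIF4E to the nucleus, both fell at 3.0 Gy, with changes of -0.50 ± 0.20 (adjusted p = 0.0443) and -0.52 ± 0.20 (adjusted p = 0.035). The dimmer probe sets of Eif4ebp2 differed by -0.23, 0.11, 0.23 and 0.24 at that dose, and its call ended when its probe sets were averaged.

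Eif5, which acts at start codon recognition as the activator of the GTPase of eIF2, fell at all 3 doses. Eif5 read 10.90, 10.08, 9.78, 10.28 and 10.09 on the control arrays, 9.36, 9.43, 9.49 and 9.20 on the 0.5 Gy arrays, 9.05, 8.86, 8.85 and 9.13 on the 1.0 Gy arrays and 7.95, 8.36, 7.69 and 8.10 on the 3.0 Gy arrays. The arrays of each dose lay wholly under those of the next lower dose, although 1.0 Gy was not called against 0.5 Gy (-0.40 ± 0.18, adjusted p = 0.843). The changes of Eif5 against control were -0.85 ± 0.17, -1.25 ± 0.17 and -2.20 ± 0.17 (SE, adjusted p = 0.00315, 3.25e-05 and 2.23e-08). Its other bright probe sets differed by -1.53 to -2.18 at 3.0 Gy, and a dim one by -0.24.

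Eif5a2, a paralogue of eIF5A, which acts in elongation and is grouped here only by its name, rose at all 3 doses. Eif5a2 read 4.72, 4.97, 4.70, 4.75 and 5.09 on the control arrays, 5.83, 5.85, 6.01 and 5.81 on the 0.5 Gy arrays, 6.25, 5.74, 6.58 and 6.87 on the 1.0 Gy arrays and 6.43, 5.67, 6.63 and 6.77 on the 3.0 Gy arrays. No irradiated array overlapped the controls. Eif5a2 changed by 1.03 ± 0.21, 1.52 ± 0.21 and 1.53 ± 0.21 (SE, adjusted p = 0.00288, 2.74e-05 and 6.47e-06), with 3.0 Gy 0.02 ± 0.22 from 1.0 Gy, and its second probe set differed by 0.85, 1.23 and 1.86. The ubiquitous Eif5a went the other way, with -1.35 ± 0.17 at 3.0 Gy (adjusted p = 2.46e-06) and levels of 8.29 to 8.78 against 9.61 to 10.18 in controls, and so did Eif6, which keeps the large subunit apart (-1.20 ± 0.20). The other tested probe set of Eif6 differed by -0.03, and Eif6 was not called with plainly named probe sets alone. Eif5b, the GTPase of subunit joining, was called at no dose against control (-0.46 ± 0.27 at 3.0 Gy), although 3.0 Gy was lower than 1.0 Gy (-0.95 ± 0.28, adjusted p = 0.0142).

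**Figure D4:**
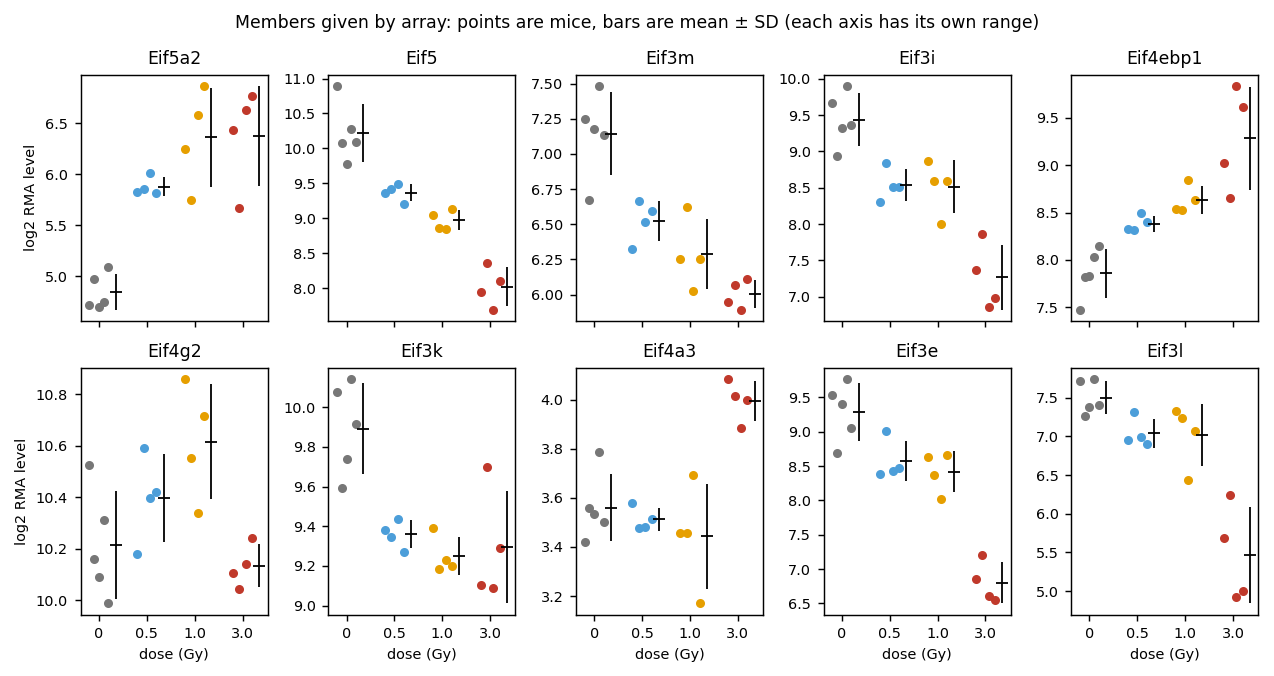
Log2 RMA level against dose in Gy, with 0 for control, of the 10 members given array by array; points are mice, and bars are the mean ± SD of 5 controls or 4 mice per dose, on an axis of its own for each gene. Eif5 steps down at each dose, Eif3k falls mostly at 0.5 Gy, and Eif3m falls at 0.5 Gy and is lower again at 3.0 Gy. Eif3l falls at 3.0 Gy, and Eif5a2 and Eif4ebp1 rise.

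Between the lower doses no member passed the test. With limma, 0 of 41 members were called at 1.0 Gy against 0.5 Gy, beside 0.00% of all genes higher and 0.0158% lower, and 1 member in each direction had an unadjusted p under 0.05. The changes ran from -0.40 to 0.48 with a median standard error of 0.18, and the lowest adjusted p was 0.831. At 3.0 Gy against 1.0 Gy 25 members fell and 2 rose, beside 22.7% and 15.9% of all genes, with a median of -0.62 for the members and 0.06 for all genes. Of the 28 members lower than control at 3.0 Gy, 23 were also lower than at 1.0 Gy. At 3.0 Gy against 0.5 Gy 24 fell and 2 rose, beside 20.9% and 12.9% of all genes, and without 3.0 Gy replicate 2 the rises numbered 5.

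In both of these comparisons Eif3e had the smallest p among the falls, with -1.62 ± 0.22 against 1.0 Gy (adjusted p = 3.3e-05) and -1.77 ± 0.22 against 0.5 Gy (adjusted p = 1.26e-05). Eif3l followed against 1.0 Gy (-1.56 ± 0.24, adjusted p = 0.000107) and Eif5 against 0.5 Gy (-1.34 ± 0.18, adjusted p = 3.35e-05). Both comparisons had the same 2 rises, Eif4a3 (0.55 ± 0.11 against 1.0 Gy and 0.48 ± 0.11 against 0.5 Gy) and Eif4ebp1 (0.65 ± 0.20, adjusted p = 0.0159, and 0.90 ± 0.20, adjusted p = 0.00185). The Eif4ebp1 rise over 1.0 Gy was not called without 3.0 Gy replicate 3 or 4. With the 18S level in the fit limma called 0 members in either comparison. Of all tested genes it then called 0 higher and 0 lower against 1.0 Gy, and 8 higher and 87 lower against 0.5 Gy. At an unadjusted p under 0.05, 0 members were higher and 7 lower against 1.0 Gy, and 2 higher and 12 lower against 0.5 Gy. The median change was 0.82 against 0.93 and the median standard error 0.48 against 0.20 for 3.0 Gy against 1.0 Gy.

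**Figure D5:**
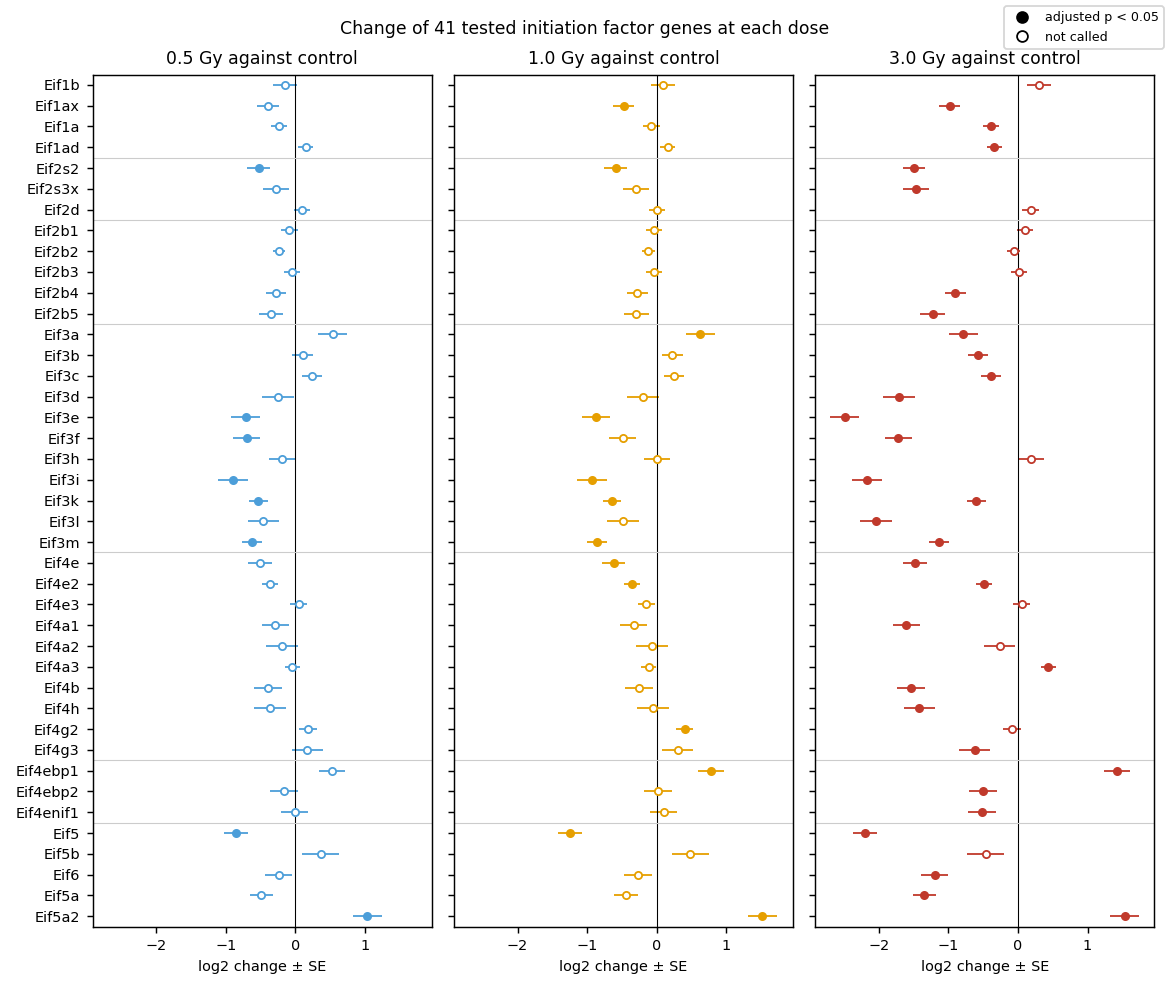
Log2 change ± SE against control of the 41 tested members at 0.5, 1.0 and 3.0 Gy, ordered by role, with grey lines between roles; filled points were called by limma at an adjusted p under 0.05. At 3.0 Gy 28 filled points lie left of 0 and 3 lie right of it (Eif4a3, Eif4ebp1, Eif5a2).

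Probe sets of the same gene mostly had the same sign. The called members had 12, 27 and 47 other probe sets at 0.5, 1.0 and 3.0 Gy, of which 10, 23 and 36 differed from control in the direction of the chosen one. The opposite ones at 3.0 Gy belonged to Eif2s2, Eif3d, Eif3l, Eif4e, Eif4e2, Eif4ebp2, Eif4g3 and Eif4h. Over the 17 arrays, after each group's mean was subtracted, the 820 pairs of members had a median Pearson r of 0.32 and the 55 pairs of eIF3 subunits one of 0.55, against -0.01 over all pairs of tested genes; the pairs share arrays, so this describes these mice only.

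Genes outside the family that act on it were counted on lists by function. For the eIF2 kinases and the integrated stress response, 5 rose and 3 fell of 15 tested at 3.0 Gy, shares of 33.3% and 20% against 20.0% higher and 29.2% lower over all tested genes. The stress-response transcription factors Ddit3 (0.69 ± 0.12), Atf5 (0.74 ± 0.13) and Atf4 (0.86 ± 0.16) rose, and so did Chac1 (0.56) and the double-stranded RNA sensor kinase Eif2ak2 (0.95). The kinase of the endoplasmic reticulum Eif2ak3 fell by 1.19 on the log2 scale, and Ppp1r15a and Ppp1r15b, which target eIF2 for dephosphorylation, fell by 0.77 each; these 5 genes from Chac1 on were named after their values were seen. Ppp1r15a was lower at every dose (-0.82 ± 0.15 at 0.5 Gy and -1.21 ± 0.15 at 1.0 Gy) and was the single called gene of this list at 0.5 Gy. At 1.0 Gy 1 rose, Eif2ak2 (1.10 ± 0.22), and 2 fell, Ppp1r15a and Impact (-0.40 ± 0.11), an inhibitor of GCN2 activation.

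On the list of mTORC1, S6 kinases and eIF4F regulators 6 fell and 1 rose of 15 at 3.0 Gy, shares of 40% and 6.67% against 29.2% lower and 20.0% higher over all tested genes. The log2 change was -1.84 ± 0.24 for Pdcd4, an inhibitor of eIF4A, -1.24 ± 0.16 for the ribosomal protein gene Rps6, which is also counted among the ribosomal proteins, and -1.12 ± 0.20 for the eIF4E kinase gene Mknk2. At 0.5 Gy Rps6 alone fell, and at 1.0 Gy Rps6 fell and Mknk1 rose (0.31 ± 0.10). Of the poly(A)-binding proteins, which join the mRNA tail to eIF4G, and their partners, 3 of 5 fell and 2 rose at 3.0 Gy. These are shares of 60% and 40%, against 29.2% lower and 20.0% higher over all tested genes. Pabpc1 changed by -0.77 ± 0.10, Paip2b by -1.13 ± 0.17 and Pabpc4 by -0.73 ± 0.15. At 1.0 Gy 2 of 5 fell (40%, against 8.49% of all tested genes), Pabpc4 (-1.03 ± 0.15, adjusted p = 4.99e-05) and Pabpc1 (-0.28 ± 0.10, adjusted p = 0.0487). At 0.5 Gy 0 of 5 were called, beside 5.0% of all tested genes lower and 5.24% higher, and 0 had an unadjusted p under 0.05.

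Of the elongation and termination factors 8 of 12 fell at 3.0 Gy (66.7%) and 4 of 12 at each lower dose (33.3%), with 0 higher. Of all tested genes 29.2% were called lower at 3.0 Gy, 5.0% at 0.5 Gy and 8.49% at 1.0 Gy. Eef1b2 (-1.61 ± 0.15) and Eef1a1 (-1.24 ± 0.12), parts of the machinery that brings tRNA to the ribosome, and Eef1e1 (-2.23 ± 0.21), an adaptor of tRNA synthetases, had the smallest p at 3.0 Gy. Of 13 other initiation and reinitiation factors 8 fell (61.5%) and 2 rose (15.4%) at 3.0 Gy, against 29.2% lower and 20.0% higher over all tested genes. Ctif, which works with the nuclear cap-binding complex, rose at every dose (0.52 ± 0.13, 0.66 ± 0.13 and 1.08 ± 0.13), while Bzw1 (-1.17 ± 0.14) and Denr, a reinitiation factor (-1.37 ± 0.17), fell at 3.0 Gy. Dhps, the enzyme that starts the hypusine modification of eIF5A, fell at 0.5 Gy (-0.54 ± 0.16). For comparison, 29, 34 and 35 of 43 tested ribosomal protein genes fell at 0.5, 1.0 and 3.0 Gy, with medians of -0.65, -0.73 and -1.24, and 1 rose at 3.0 Gy; the medians of the initiation factors were -0.24, -0.12 and -0.60. The medians describe each list and were not tested against each other.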

How the data were processed

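Total RNA of whole blood from 17 mice (5 control, 4 per dose) was read on Affymetrix mouse arrays. The deposited table holds the authors' log2 values of 45101 probe sets. RMA (background correction, quantile normalization, summary of probes) and R 3.3.2 are named per the submitters' processing notes; its settings are not given in the labels or headers. Since RMA equalises the arrays, a shift shared by most genes is partly removed, and changes of dim probe sets are understated. The number of arrays limits the precision.

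Genes were named from the platform annotation (34945 probe sets with 1 symbol). The highest-mean probe set of a gene was kept when above its array's median in at least 4 arrays. Group means over all 17 arrays were fitted with limma 3.58.1 (lmFit and eBayes, two-sided) in R 4.3.3, with Benjamini-Hochberg adjustment over 12696 genes and calls at an adjusted p under 0.05. The code was tested on simulated data. Errors of changes are moderated SEs. The 18S levels were compared by exact permutation over 126 regroupings.

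Members and lists were chosen with earlier results of these data known. All members could be named; values by array are given for the 3 called members with the smallest p per direction and dose, and 2 per comparison between doses; up to 3 called genes per pathway list were named. Alternatives were other filters, probe set choices, a repeated normalization, the replicate number as a block, the 18S level in the fit, a trended robust prior, only the groups compared, and each array left out. The labels call the mice biological replicates. Same-numbered arrays deviated together in some pairs and not in others (24 pairs, r from -0.45 to 0.49, 11 above 0.1). These mixed values cannot decide whether the numbers pair the mice. No label says that they do, and the main fit took them as unpaired. RefSeq windows matched 34 of 43 members by symbol.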

Additional observations from a re-analysis of the deposited data

Results flagged for a closer look

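In the 0.5 Gy group, replicate 2 had the highest level of Eif3e, 9.01 on the log2 scale against 8.47 for the next array, a gap of 0.875 of the group's range. This was the only far array among the 40 groups of the members given by array, and chance gives about 1 in 20 groups.

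The 18S control probe sets, which take no part in the comparisons of genes, were higher than in controls by 2.17 at 0.5 Gy and by 2.76 at 1.0 Gy on the log2 scale. Both exact permutation p-values were 0.00794, the smallest that 126 regroupings allow. At 3.0 Gy the difference was 0.16 (p = 0.587 by the same exact permutation test). No batch is given in the labels, and the part of this split in the members' changes at the lower doses was not tested beyond the fit with the 18S level.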

How the results depend on the processing

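Of 312 recomputed counts of members, 275 stayed within 1.5 times the reported count and 37 did not. Each count covers 1 direction, so a change of direction could not show in it. The counts of 1.0 Gy against 0.5 Gy, reported as 0, are among them. Of 618 recomputed changes of members given by array, 590 kept their side of the threshold, 28 lost the call and 0 changed sign. Alternatives that altered only the filter, the prior or the arrays of groups not compared left each log2 change as it was. In these a change of sign could not show. With the 18S level in the fit, 0 members rose and 2 fell at 0.5 Gy, 0 rose and 2 fell at 1.0 Gy, and 0 rose and 0 fell at 3.0 Gy against 1.0 Gy or 0.5 Gy. Of all tested genes this fit called 232 higher and 325 lower at 0.5 Gy, and 285 and 321 at 1.0 Gy. At 3.0 Gy it called 0 and 0 against 1.0 Gy, and 8 and 87 against 0.5 Gy. Standard errors grew in this fit. At 3.0 Gy against control 31 of 31 called members kept their sign. The 18S levels of these groups differed by only 0.16, so the covariate could change little there. After a repeated quantile normalization 2 members rose at 0.5 Gy, 5 at 3.0 Gy and 4 each at 3.0 Gy against 1.0 Gy and against 0.5 Gy. All tested genes then split into 3505 higher and 2481 lower (2016 and 2888 in the deposited values) at 3.0 Gy against 1.0 Gy and 2857 and 2437 (1633 and 2659) against 0.5 Gy. With the replicate block 2 members rose at 0.5 Gy and 2 at 1.0 Gy, where the rises of Eif3a and Eif4g2 and the falls of Eif1ax and Eif4e2 ended, as did the fall of Eif2s2 at 0.5 Gy; 7 of 17 arrays correlated best with their own number. With only the groups compared, 2 rose at 0.5 Gy, 2 at 1.0 Gy and 1 at 3.0 Gy against 1.0 Gy. With probe sets without _x, _s or _a in their names, the 3.0 Gy falls of Eif1ax, Eif3e, Eif4h and Eif6 ended, that of Eif3e because its remaining probe set is under the filter. A filter at the 75th percentile, which removes Eif4a3, left 1 rise at 3.0 Gy against 1.0 Gy and 1 against 0.5 Gy. Leaving out single arrays gave 1 to 2 rises and 4 to 11 falls at 0.5 Gy, 2 to 5 rises and 6 to 10 falls at 1.0 Gy, and 3 to 4 rises and 23 to 28 falls at 3.0 Gy. It gave 1 to 2 rises and 22 to 26 falls against 1.0 Gy, and 2 to 5 rises and 22 to 25 falls against 0.5 Gy. Over all tested genes, leaving out single arrays gave 480 to 763 rises and 274 to 928 falls at 0.5 Gy. The ranges were 901 to 1236 and 770 to 1264 at 1.0 Gy, and 2049 to 2633 and 3351 to 3770 at 3.0 Gy. Except for the constructions named, the cause was not tested. The number of mice and, for dim probe sets such as that of Eif4a3, the unknown signal over background limit what could be seen.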
